A study of Mus musculus and Homo sapiens with 12 samples.

Results

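The 10 genes described here are PHGDH, PSAT1, PSPH and SHMT2, which make serine or pass on its carbon, and ASNS, CHAC1, DDIT3, TRIB3, SLC7A5 and SLC7A11, which are known targets of the transcription factor ATF4. They were taken from a named list and matched by gene symbol without regard to case. All 10 were found, among 55487 genes of the mouse table and among 78932 genes of the human table. Their levels were read from poly(A) RNA sequencing of 12 libraries, 3 in each of 4 groups, which form 2 experiments on loss of the nucleolar RNA helicase DDX21. In the mouse experiment, LK cells (live, without lineage markers, Kit-positive) were sorted from E13.5 embryonic liver. The WT group has the genotype Ddx21f/f, and the cKO group Vav-Cre; Ddx21f/f, so both carry the floxed alleles and only the cKO label carries Cre, whose Vav promoter is active in blood cells. In the human experiment, blood cells were differentiated from H1, an embryonic stem cell line. A lentivirus with an mCherry marker delivered the control hairpin (shNC) or the one that targets DDX21 (shDDX21), and cells positive for CD34, CD45, CD43 and the vector were collected 2 days later. The labels do not say whether libraries of a group came from separate embryos, pools or cultures, so p-values measure only the spread between these samples, which may be technical.

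PHGDH, PSAT1 and PSPH carry out the successive steps from a glycolytic intermediate to serine, and the mitochondrial enzyme SHMT2 splits serine into glycine and a carbon unit that is carried by folate and used for nucleotide synthesis. ATF4 is translated preferentially when stress kinases phosphorylate the initiation factor eIF2, for example during lack of amino acids, unfolded protein in the endoplasmic reticulum or, through EIF2AK1 in red cell precursors, lack of heme. It then raises transcription of amino acid synthesis enzymes, amino acid transporters and tRNA synthetases, of DDIT3, and of TRIB3, a brake on ATF4 itself.

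ATF4 binds DNA with C/EBP partners at a composite element whose core is TGATGNAA, and the core was searched on both strands in the 250 bases before each start site of the RefSeq mouse promoter table (GRCm38.p6). The table holds 9 of the 10 mouse genes, and 3 of them have the core, compared with 3.91% of all genes in it and 3.45% of its 32851 promoters. These windows of 30 bases are shown because they are the members' own matches. Capitals mark the core or its reverse complement.
Asns, chr6:7693214-7693243, minus strand: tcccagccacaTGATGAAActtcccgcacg
Chac1, chr2:119351038-119351067, plus strand: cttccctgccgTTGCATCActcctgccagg
Slc7a11, chr3:50443651-50443680, minus strand: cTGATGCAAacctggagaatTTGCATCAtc
The Slc7a11 window holds 2 cores in opposite orientations, and the Asns core lies 16 to 23 bases before the RefSeq start site. The gene model used for counting starts Asns further upstream, at 7693254, so the printed Asns window lies within that model. Phgdh, Psat1, Psph, Shmt2, Ddit3 and Trib3 have no match in their windows. A match is a description of the letters, not a measured binding site.

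Total counts were 21116079 to 23898130 in the mouse libraries and 15289510 to 19798608 in the human libraries. DDX21 itself stood at 19.7% of the WT level in cKO and at 14.5% of the shNC level in shDDX21. The blood progenitor genes KIT, CD34, PTPRC and SPN were expressed in every group, and all 4 differed between groups in both experiments by the test described below. CD34 rose from 134 to 215 CPM in mouse (CPM is the read count scaled to a common library total) and from 249 to 297 in human. PTPRC went from 70.9 to 101 CPM in mouse and from 94.9 to 69.4 in human, while KIT and SPN were lower in cKO and higher in shDDX21. Their full list had 3 of 10 called higher and 4 lower in mouse, and 4 of 9 higher and 4 lower in human. Among the rest, mouse Gfi1b (log2 fold change -0.78) and Tal1 (-0.26) fell and Lmo2 (0.17) rose. In human GATA2 (435 to 200 CPM, -1.12), LMO2 (-0.77) and MYB (-0.61) fell and TAL1 (0.54) rose. In mouse the summed hepatocyte markers were 1.44 to 2.00 CPM in WT and 29.4 to 33.4 in cKO, where 4 of 4 tested markers were called higher. Of the mouse erythroid markers 3 of 9 were called higher and 3 lower; their sum, 1656 to 1670 CPM in WT and 1128 to 1148 in cKO, was mostly Tfrc, which went from 1279 to 727 CPM. Summed granulocyte and monocyte markers (7 of 8 called lower, 1 higher) were 716 to 976 and 379 to 629 CPM, endothelial markers (5 of 7 higher) 46.9 to 50.9 and 88.5 to 96.4, and macrophage markers (2 of 4 lower, 1 higher), with C1QC at 0 throughout, 37.7 to 40.9 and 14.5 to 17.3. The endothelial sum was mostly Pecam1 (33.6 CPM in WT, 45.3 in cKO) and Tek (log2 fold change 2.05), while Kdr was not called (-0.099). In WT the macrophage sum was mostly Csf1r, at 30.5 CPM. Csf1r fell (log2 fold change -2.08) and Cd68 rose (0.33), so these sums mainly follow a few genes. In human, summed granulocyte and monocyte markers (5 of 5 called lower) were 526 to 544 CPM in shNC and 265 to 273 in shDDX21. Of the human erythroid markers 4 of 8 were called higher and 2 lower, with a sum of 1538 to 1557 and 1130 to 1150 CPM that was mostly TFRC (1131 and 656 CPM). Human endothelial markers (3 of 7 higher, 3 lower) summed to 1617 to 1659 and 1427 to 1444 CPM, and pluripotent stem cell markers (1 of 2 higher) to 230 to 239 and 278 to 289. Of the latter, LIN28A rose from 157 to 209 CPM and DPPA4 was not called (-0.033). The other markers on that list were not matched to a human gene symbol and so were not looked at. Human macrophage markers (1 of 6 higher, 4 lower) summed to 488 to 504 and 496 to 504 CPM. Beside these marker counts, 20.7% of all genes tested were called higher and 15.8% lower in mouse, and 25.3% and 27.4% in human. Xist, which is expressed from the inactive X, was 744 to 784 CPM in the WT libraries and 78.7 to 82.4 in cKO, while the Y-linked Ddx3y was 52.5 to 58.4 and 95.02 to 108. RNA of both sexes was therefore present in every mouse library, at a mix that was nearly the same in the 3 libraries of a group and differed between the groups, so that embryo sex and genotype cannot be told apart. The part of these differences in the results below was not tested. In bulk samples, fewer cells of a type and less RNA per cell cannot be told apart.

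The mouse libraries also stood apart within their groups along the GC content of transcripts. Over 11037 genes, the deviation of a library from its group mean rose with GC content in WT replicate 1, WT replicate 2 and cKO replicate 1 (Spearman correlation across genes 0.50, 0.39 and 0.65) and declined with it in WT replicate 3 and cKO replicate 2 (-0.58 and -0.66). In cKO replicate 3 the coefficient was 0.036. Genes are not independent replicates, so these values are descriptions. Shmt2 and Phgdh, at 57.4% and 57.2% GC, lie near the 90th percentile of tested genes and moved with this axis, whereas Asns and Psat1, at 47.7% and 48.4%, hardly did. Psph, at 49.6% near the middle of tested genes, varied about as much as Phgdh over the same libraries. It ran from -0.18 in cKO replicate 2 to 0.25 in cKO replicate 1, so the members were not ordered by GC content alone. Results were therefore also fitted with a GC correction and without both libraries that have the lowest trend, choices made after seeing the data. Correcting all libraries to a common trend also removes any GC trend that differs between the groups, and so can remove part of a genotype difference. Correcting each library only to its own group removes part of the spread between libraries that the test uses. More genes were called with it over the whole genome (3609 higher and 3530 lower, beside 3083 and 2360 without it).

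**Figure D1:**
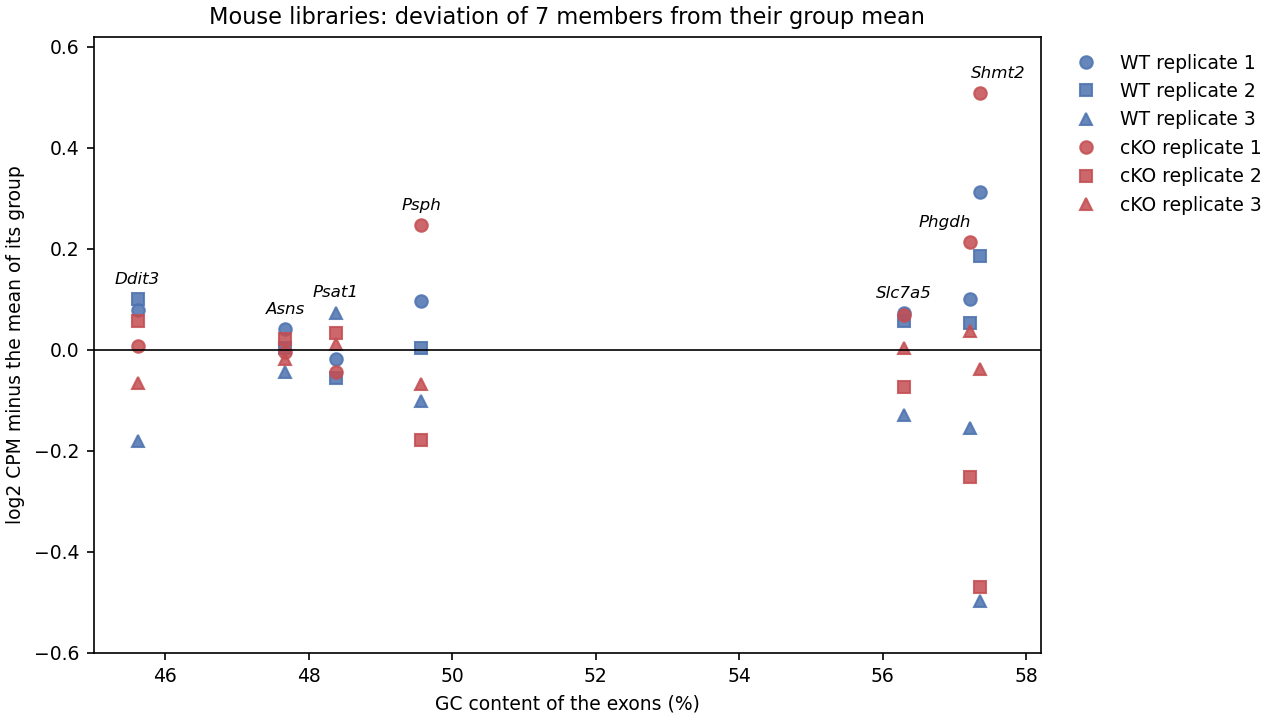
Deviation of 7 mouse members from the mean of their own group (log2 CPM, vertical) against the GC content of the exons of their longest transcript (percent, horizontal), with a point for each library. Shmt2 spans from -0.50 in WT replicate 3 to 0.51 in cKO replicate 1, while Asns stays within 0.045 of its group means.

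In mouse LK cells 5 of the 9 members that passed the filter on low counts were called lower in cKO (Psat1, Psph, Shmt2, Asns and Slc7a5) and 0 were called higher. A member was called at an adjusted p under 0.05 in edgeR's quasi-likelihood test, adjusted over all genes. None was called higher by DESeq2 either, or at an unadjusted p under 0.05. For comparison, 36.5% of the 14918 mouse genes tested were called, 20.7% higher and 15.8% lower. The median log2 fold change of the 9 members was -0.37, and that of all genes was 0.00057. In the human cells all 10 were tested, 6 were called lower in shDDX21 (PHGDH, PSAT1, PSPH, SHMT2, SLC7A5 and SLC7A11) and 1 higher (DDIT3). Of the 20188 human genes tested, 52.7% were called, 25.3% higher and 27.4% lower. The members' median was -0.20, beside 0.0052 for all genes. The 3 libraries of each group did not overlap in CPM for 5 of 9 mouse members and 7 of 10 human members, against 49.0% and 57.4% of all genes tested. The members called lower in both experiments were Psat1, Psph, Shmt2 and Slc7a5. A call with a change of at least 1.5-fold was made for 2 members in mouse (Psph and Shmt2) and 2 in human (PHGDH and PSAT1), all lower. By the same rule 1797 of the 14918 mouse genes were called higher and 693 lower. Of the 20188 human genes, 1884 were called higher and 2105 lower. Counted in either direction, the shares of members called by this rule were near those of all genes. Summed over the 10 genes, expression was 2154 ± 153 CPM in WT and 1619 ± 116 in cKO (SD, n = 3), and 790 ± 8.85 in shNC and 569 ± 4.85 in shDDX21 (SD, n = 3).

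**Figure D2:**
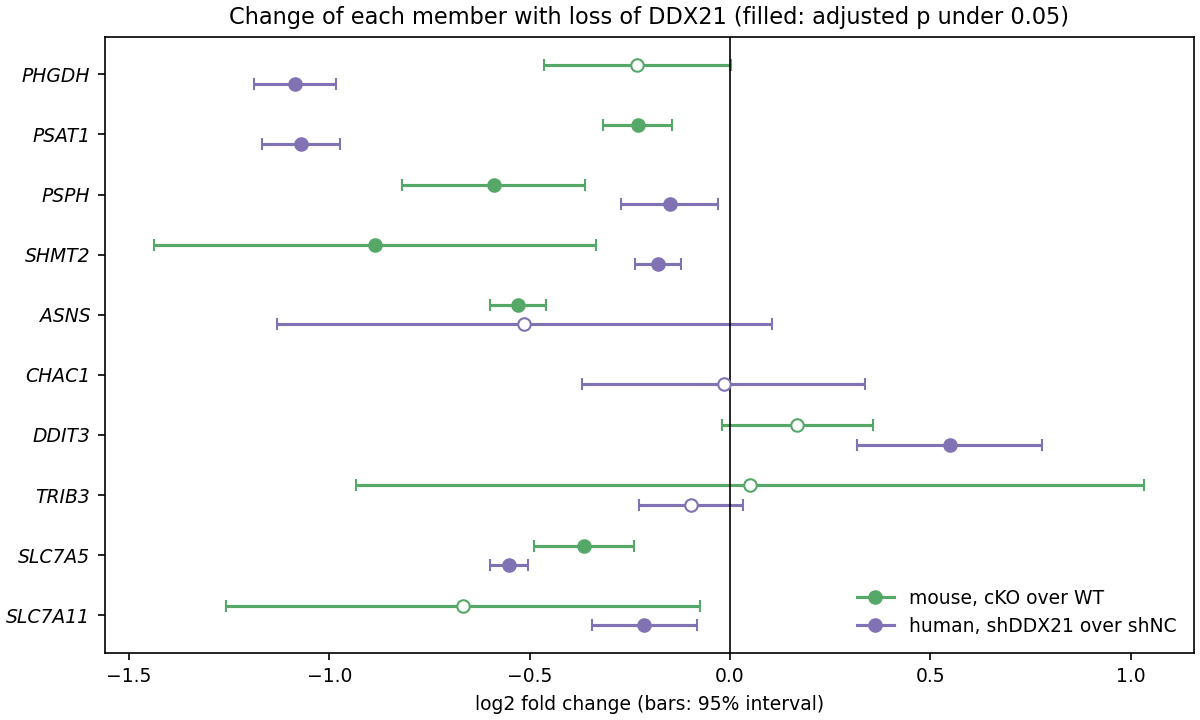
Log2 fold change of each member (horizontal; cKO over WT in green, shDDX21 over shNC in purple), with bars for the 95% interval and filled points where the adjusted p was under 0.05. PHGDH and PSAT1 lie near -1.1 in human and near -0.23 in mouse, and DDIT3 is the member with a called increase, in human. Chac1 was not tested in mouse.

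PHGDH catalyses the first committed step of serine synthesis, and it fell to 47.0% of the control level in human and did not pass the test in mouse. Phgdh lies on mouse chromosome 3 at 98313170 to 98339990 on the minus strand (ENSMUSG00000053398, GRCm38), and PHGDH on human chromosome 1 at 119648411 to 119744218 on the plus strand (ENSG00000092621; hg38 per the submitters' processing notes). In human it stood at 60.3, 63.9 and 62.5 CPM in the shNC libraries and at 28.8, 28.0 and 30.9 in shDDX21. Every shDDX21 library was below every shNC library. On the log2 scale the change was -1.09 (SE 0.052, adjusted p = 1.0e-29). In mouse it was 385, 373 and 322 CPM in WT and 353, 256 and 312 in cKO. The groups overlap, since cKO replicate 1 lies above WT replicate 3. The log2 fold change was -0.23 (SE 0.12) and did not pass the test, with an adjusted p of 0.17 by edgeR. This value depended on the kind of GC correction. It was 0.025 (adjusted p = 0.60 by edgeR) with libraries corrected to a common GC trend, which also removes a trend that differs between the groups. It was -0.24 (adjusted p = 0.00052 by edgeR) when each library was corrected only to its own group. Without cKO replicate 1 it was -0.33 (adjusted p = 0.040), and without WT replicate 3 and cKO replicate 2 it was -0.18 (adjusted p = 0.035).

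PSAT1, the aminotransferase of the next step, fell in both experiments, by very different amounts. It lies on mouse chromosome 19 at 15904678 to 15947337 (minus strand) and on human chromosome 9 at 78297125 to 78330093 (plus strand). Human PSAT1 was 67.8, 74.6 and 72.7 CPM in shNC and 31.9, 35.9 and 34.7 in shDDX21. These groups are far apart, with 47.6% of the control level left (log2 fold change -1.07, SE 0.050, adjusted p = 2.3e-30). Mouse Psat1 was 540, 526 and 575 CPM in WT and 452, 477 and 470 in cKO. No cKO library reached the lowest WT library, and 85.2% of the WT level was left (log2 fold change -0.23, SE 0.044, adjusted p = 0.0062). With libraries scaled to total counts alone, the mouse value was -0.17 with an adjusted p of 0.058 by edgeR.

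PSPH, the phosphatase that releases serine, showed the larger change in mouse. It lies on mouse chromosome 5 at 129765558 to 129787449 (minus strand) and on human chromosome 7 at 56011051 to 56051604 (minus strand). Mouse Psph was 45.6, 42.7 and 39.7 CPM in WT and 33.4, 24.8 and 26.8 in cKO. All cKO libraries lie below all WT libraries, at 66.5% of the WT mean (log2 fold change -0.59, SE 0.12, adjusted p = 0.0070). The call held under every alternative run for it. Of the exon bases of Psph, 10.4% are shared with Cct6a on the other strand, a chaperonin subunit gene with more reads (861 CPM in WT, 787 in cKO, log2 fold change -0.13), and whether counting separated the strands is not given in the sources used here. Human PSPH was 32.3, 35.4 and 32.6 CPM in shNC and 32.2, 28.0 and 29.8 in shDDX21. The highest shDDX21 library lies just below the lowest shNC library, and the decrease of 0.15 on the log2 scale (log2 fold change -0.15, SE 0.062) had an adjusted p of 0.035 by edgeR. It lost the call with DESeq2 (adjusted p = 0.12), with upper-quartile scaling (adjusted p = 0.28), and without shNC replicate 2, shDDX21 replicate 2 or shDDX21 replicate 3 (adjusted p = 0.17, 0.20 and 0.082).

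SHMT2, the mitochondrial enzyme that takes serine into the folate pathway, was called lower in both experiments. It lies on mouse chromosome 10 at 127517123 to 127522444 (minus strand) and on human chromosome 12 at 57229573 to 57234935 (plus strand). Human SHMT2 was 161, 164 and 164 CPM in shNC and 146, 143 and 143 in shDDX21. The 2 groups are tight and separate, with 88.3% of the control level left (log2 fold change -0.18, SE 0.030, adjusted p = 3.2e-07). Mouse Shmt2 was 430, 393 and 245 CPM in WT and 264, 134 and 180 in cKO, and the groups overlap: WT replicate 3 lies below cKO replicate 1. The change was -0.89 on the log2 scale (SE 0.28, adjusted p = 0.044). The call was lost without WT replicate 1, WT replicate 2, cKO replicate 2 or cKO replicate 3 (adjusted p = 0.14, 0.13, 0.080 and 0.14), and when at least 10 counts were required in every library (adjusted p = 0.0505). With the correction to a common GC trend the log2 fold change was -0.63 (adjusted p = 0.0063), with the correction within groups it was -0.90 (adjusted p = 0.00098), and without WT replicate 3 and cKO replicate 2 it was -0.88 (adjusted p = 0.0023). The sum of PHGDH, PSAT1, PSPH and SHMT2 was 1305 ± 112 CPM in WT and 994 ± 105 in cKO (SD, n = 3), and 330 ± 8.03 in shNC and 237 ± 2.14 in shDDX21 (SD, n = 3).

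**Figure D3:**
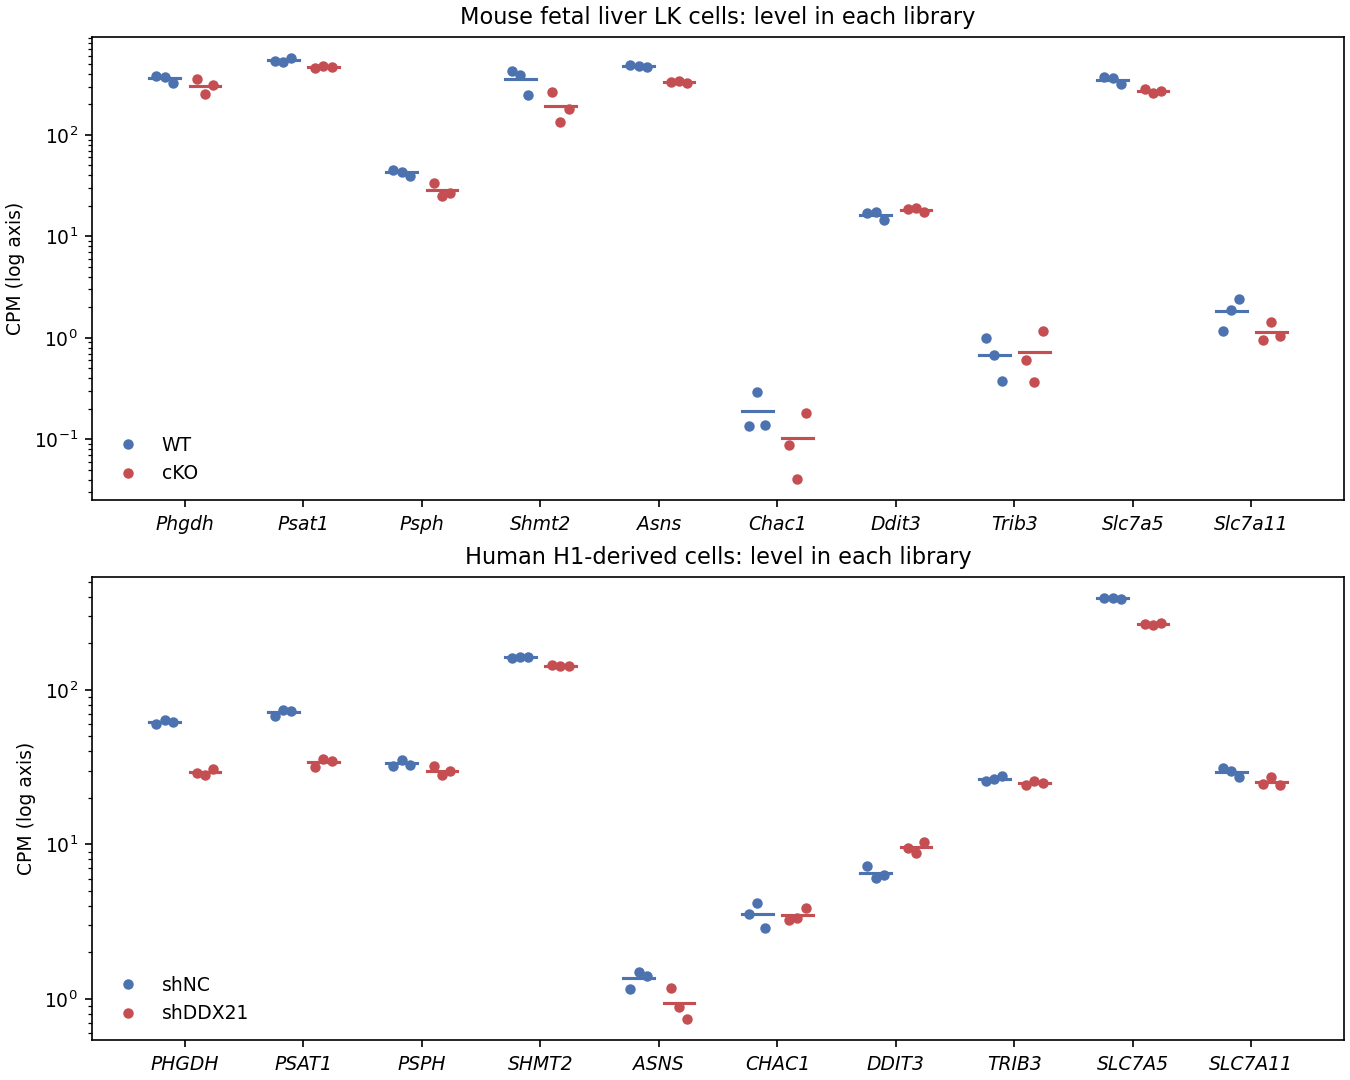
Level of each member in each library (CPM, log axis; mouse above, human below; controls in blue, loss of DDX21 in red; lines mark group means). In mouse, Asns, Psat1, Psph and Slc7a5 separate the groups downward; in human, PHGDH and PSAT1 are the most widely separated members.

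ASNS makes asparagine from aspartate and glutamine and is widely used as a readout of ATF4. In mouse, Asns (chromosome 6, 7675169 to 7693254, minus strand), whose promoter core is printed above, was 493, 480 and 464 CPM in WT and 331, 337 and 328 in cKO. The groups are tight and far apart, and the cKO level was 69.3% of WT (log2 fold change -0.53, SE 0.036, adjusted p = 4.6e-05). Its log2 fold change ranged from -0.56 to -0.46 over the alternatives run. In human, ASNS (chromosome 7, 97851677 to 97872542, minus strand) held only 22, 23 and 25 reads in shNC and 23, 15 and 13 in shDDX21. Of its exon bases, 49.3% are shared with ENSG00000284707, a gene on the same strand without a symbol in the files (chromosome 7, 97851688 to 97972985), so its reads can be split or dropped in counting and its level is uncertain. The groups overlap at 1.36 ± 0.17 and 0.94 ± 0.22 CPM (SD, n = 3), and the log2 fold change of -0.51 (SE 0.31) did not pass the test, with an adjusted p of 0.17 by edgeR. ENSG00000284707 itself was 6.41 ± 0.59 CPM in shNC and 7.24 ± 0.78 in shDDX21 (SD, n = 3), with a log2 fold change of 0.17 (adjusted p = 0.26 by edgeR).

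CHAC1 degrades glutathione and is among the genes most strongly raised by ATF4 in stress. Mouse Chac1 (chromosome 2, 119351229 to 119354381, plus strand) had 3, 6 and 3 reads in WT and 2, 1 and 4 in cKO. It did not pass the filter on low counts, and no difference was detectable at this depth. Human CHAC1 (chromosome 15, 40952962 to 40956512, plus strand) was 3.55, 4.18 and 2.87 CPM in shNC and 3.23, 3.32 and 3.87 in shDDX21. The groups overlap, and the log2 fold change of -0.016 had a 95% interval from -0.37 to 0.34 (adjusted p = 0.95 by edgeR).

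DDIT3 encodes CHOP, a transcription factor induced through ATF4 in prolonged stress. It was the member with an increase in human. Human DDIT3 (chromosome 12, 57516588 to 57521737, minus strand) was 7.25, 6.07 and 6.30 CPM in shNC and 9.55, 8.83 and 10.4 in shDDX21. The groups do not overlap, and the shDDX21 level was 147% of control (log2 fold change 0.55, SE 0.12, adjusted p = 5.3e-05). Of its exon bases, 39.6% are shared with other genes, most of them with MARS1 on the other strand, and reads of the pair cannot be told apart without a stated strand setting. MARS1, the methionyl-tRNA synthetase, moved in the other direction, from 241 to 194 CPM (log2 fold change -0.32). Mouse Ddit3 (chromosome 10, 127290774 to 127296288, plus strand) was 17.2, 17.4 and 14.3 CPM in WT and 18.4, 19.0 and 17.5 in cKO. The lowest cKO library lies just above the highest WT library, but the log2 fold change of 0.17 (SE 0.096) did not pass the test (adjusted p = 0.21 by edgeR). Of the mouse exon bases, 10.9% are shared with other gene entries, so reads there can be split or dropped in counting. Among these are Mars1 on the other strand (log2 fold change -0.41) and a second Ddit3 entry on the same strand, with 0 reads.

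TRIB3, a pseudokinase that holds ATF4 and CHOP in check, did not pass the test in either experiment. Human TRIB3 (chromosome 20, 362835 to 397559, plus strand) was 25.7, 26.6 and 27.8 CPM in shNC and 24.2, 25.7 and 24.999 in shDDX21. The highest shDDX21 library is at the edge of the lowest shNC library, and the log2 fold change was -0.097, with a 95% interval from -0.23 to 0.033 (adjusted p = 0.22 by edgeR). Mouse Trib3 (chromosome 2, 152337422 to 152344032, minus strand) had 22, 14 and 8 reads in WT and 14, 9 and 26 in cKO. At such counts its log2 fold change of 0.051 has a 95% interval from -0.93 to 1.03 (adjusted p = 0.95 by edgeR), and its sign changed without WT replicate 3 (-0.25) or cKO replicate 3 (-0.49).

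SLC7A5 is the exchanger LAT1, which brings in leucine and other large neutral amino acids, and it fell in both experiments. It lies on mouse chromosome 8 at 121881150 to 121907694 (minus strand) and on human chromosome 16 at 87830016 to 87869507 (minus strand). Human SLC7A5 was 394, 395 and 388 CPM in shNC and 266, 265 and 272 in shDDX21. The groups are far apart, with 68.3% of the control level left (log2 fold change -0.55, SE 0.024, adjusted p = 5.1e-32). Mouse Slc7a5 was 368, 364 and 320 CPM in WT and 285, 259 and 273 in cKO. All cKO libraries lie below all WT libraries, at 77.6% of WT (log2 fold change -0.37, SE 0.064, adjusted p = 0.0041). The exons of its longest transcript hold 56.3% GC, and with the correction to a common GC trend the mouse value was -0.15 with an adjusted p of 0.070 by edgeR.

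SLC7A11 is the cystine-glutamate exchanger that supplies cysteine for glutathione. Human SLC7A11 (chromosome 4, 138164097 to 138242349, minus strand) was 31.1, 29.7 and 27.3 CPM in shNC and 24.5, 27.5 and 24.1 in shDDX21. The groups touch, since shDDX21 replicate 2 lies above shNC replicate 3, and 86.4% of the control level was left (log2 fold change -0.21, SE 0.067, adjusted p = 0.0051). The call was lost without shNC replicate 1 (adjusted p = 0.057) and with upper-quartile scaling (adjusted p = 0.062). Mouse Slc7a11 (chromosome 3, 49892526 to 50443614, minus strand), the gene with 2 cores in its window, had only 26, 39 and 52 reads in WT and 22, 35 and 23 in cKO. These overlap, and the log2 fold change of -0.67 (SE 0.30) had an adjusted p of 0.12 by edgeR, or 0.038 without WT replicate 1.

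Per length of exon (FPKM, the CPM divided by exon length in kilobases), the order of the members differed between the systems. In WT mouse cells Asns was highest at 175 ± 5.25 FPKM (SD, n = 3), followed by Phgdh at 145, Psat1 at 129, Shmt2 at 114 and Slc7a5 at 94.6, where each of the last 4 overlapped its neighbour over libraries. Psph at 9.86 and Ddit3 at 9.52 overlapped each other and lay far below. Trib3 at 0.32, Slc7a11 at 0.13 and Chac1 at 0.12 were near the limit of detection, the last pair overlapping. In cKO, Phgdh (123) and Asns (121) overlapped at the top, Psat1 followed at 110, and Ddit3 at 10.7 stood above Psph at 6.55 without overlap. In shNC cells SLC7A5 was highest at 82.2, with SHMT2 at 35.5, PSAT1 at 32.5 and PSPH at 12.1, none overlapping. TRIB3 at 7.19 and PHGDH at 6.77 overlapped, and DDIT3 (5.004), SLC7A11 (3.04), CHAC1 (1.72) and ASNS (0.28) followed without overlap. In shDDX21 cells PHGDH moved to 3.19, below DDIT3 at 7.35 and TRIB3 at 6.72, which overlapped each other. FPKM orders are set side by side only, since the 2 experiments were counted on different gene models. Within an experiment the order also rests on the exon lengths of the gene model. In shNC, PHGDH (9187 exon bases) stood at 62.2 CPM and TRIB3 (3714 exon bases) at 26.7 CPM.

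**Figure D4:**
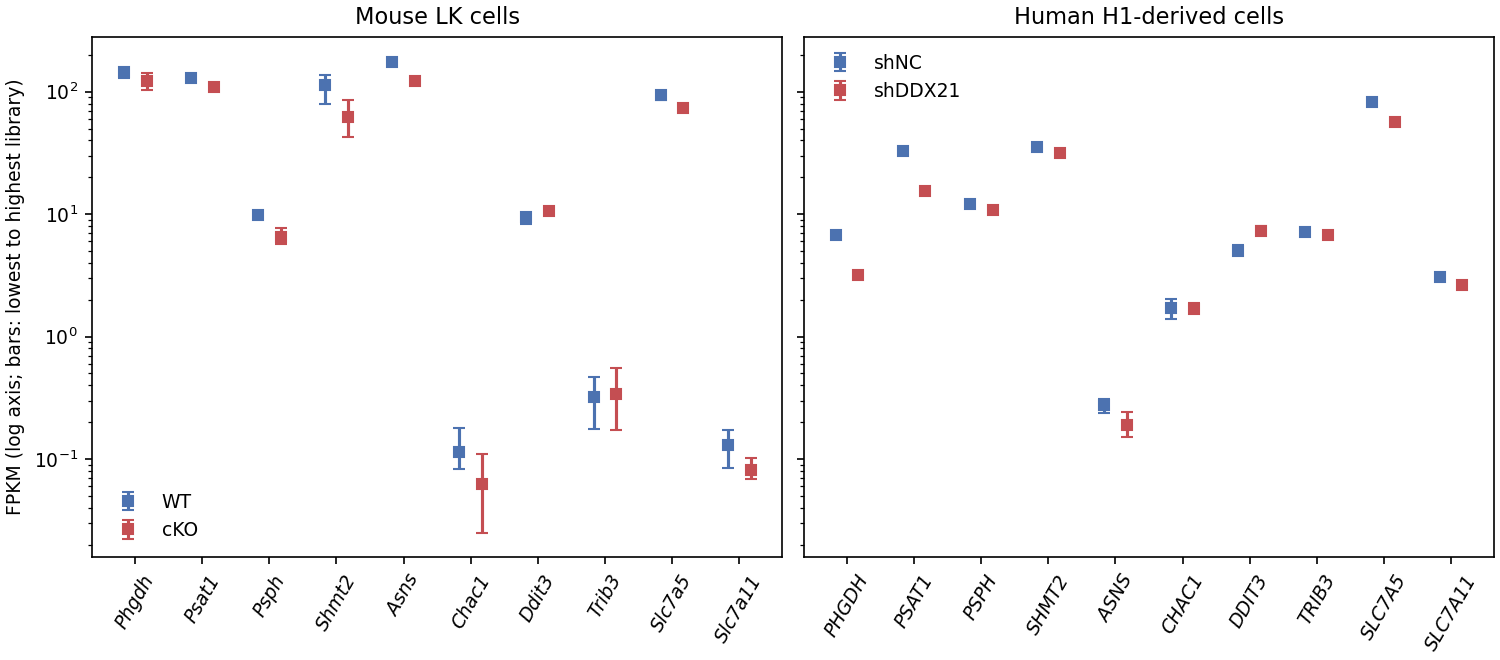
FPKM of each member (log axis) as the group mean with bars from the lowest to the highest library, mouse on the left and human on the right. Asns is the highest member in WT mouse cells at 175 FPKM and the lowest in shNC cells at 0.28, where its reads are shared with another gene.

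Whether the effects differed between the experiments was tested as an interaction over 10319 genes matched by symbol, of which 56.2% were called, 35.8% with the mouse effect above the human effect and 20.4% below it. Of the 9 members that could be matched, 5 were called, near the share of all matched genes. PHGDH and PSAT1 had the lower log2 fold change in human, with a mouse minus human difference of 0.86 (SE 0.15, adjusted p = 0.00044) and 0.84 (SE 0.073, adjusted p = 1.7e-06), and both kept their call under every alternative run. SLC7A5 also lay lower in human (difference 0.19, SE 0.072, adjusted p = 0.044). PSPH fell further in mouse (difference -0.44, SE 0.14, adjusted p = 0.023), and DDIT3 had the smaller log2 fold change there (difference -0.38, SE 0.14, adjusted p = 0.041). The calls for PSPH, DDIT3 and SLC7A5 were each lost when single libraries were left out, with adjusted p-values up to 0.059, 0.099 and 0.084 by edgeR. The count of called members was 2 without cKO replicate 3, shNC replicate 3 or shDDX21 replicate 1, and 3 without shNC replicate 1, shNC replicate 2 or shDDX21 replicate 3. The call for DDIT3 was also lost with total counts (adjusted p = 0.10), and that for SLC7A5 with upper-quartile scaling (adjusted p = 0.055) and with no filter (adjusted p = 0.060). The difference for SHMT2 was -0.71 (SE 0.32, adjusted p = 0.078 by edgeR), for SLC7A11 -0.45 (adjusted p = 0.19), for TRIB3 0.14 (adjusted p = 0.79) and for ASNS -0.020 (adjusted p = 0.96), and none of these passed the test. Some alternatives did call SHMT2, namely upper-quartile scaling (adjusted p = 0.037 by edgeR), leaving out WT replicate 3 (0.010), cKO replicate 1 (0.0045) or both WT replicate 3 and cKO replicate 2 (0.00055), and the GC corrections to a common trend (0.026) and within groups (0.0016). SLC7A11 was called without WT replicate 1 (adjusted p = 0.022 by edgeR). Species, cell system, time and means of DDX21 loss all differ between the experiments and cannot be told apart.

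ATF4 mRNA itself changed in opposite directions. Mouse Atf4 was 206, 194 and 194 CPM in WT and 169, 176 and 171 in cKO, and fell without overlap (log2 fold change -0.20, SE 0.040, adjusted p = 0.0069). Human ATF4 was 387, 394 and 376 CPM in shNC and 508, 505 and 507 in shDDX21, and rose without overlap (log2 fold change 0.39, SE 0.023, adjusted p = 2.2e-25). The interaction was -0.60 (SE 0.045, adjusted p = 5.5e-07). ATF4 is controlled mainly in translation, which these counts do not measure. SLC3A2, the partner chain of both transporters, was 128 ± 7.68 CPM in WT and 113 ± 8.19 in cKO (SD, n = 3), which did not pass the test (log2 fold change -0.18, adjusted p = 0.074 by edgeR). In human it was 167 ± 5.54 and 155 ± 2.81 CPM and fell by 0.11 on the log2 scale (adjusted p = 0.0011).

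The other enzymes of serine and folate carbon metabolism fell broadly in human and went both ways in mouse. Of 24 tested in human, 19 were called lower and 4 higher, with a median log2 fold change of -0.38, where 27.4% of all human genes were called lower and 25.3% higher. MTHFD1, the cytosolic enzyme that interconverts folate carbon units, went from 167 to 87.7 CPM (-0.93), MTR, the methionine synthase, from 191 to 129 (-0.57), SFXN1, the mitochondrial serine carrier, from 131 to 89.4 (-0.55) and MTHFD1L by -0.61. MTHFD2L (0.51), SFXN3 (0.57) and SDSL (0.36) were among those that rose. Of 24 tested in mouse, 5 were called lower and 8 higher, with a median of -0.024, beside 15.8% lower and 20.7% higher over all mouse genes, so that the share called lower was near that of all genes. Mthfd1l (-0.24), the thymidylate synthase Tyms (-0.35) and the carrier Slc25a32 (-0.29) were among those that fell, while Shmt1, the cytosolic counterpart of SHMT2, rose from 97.9 to 111 CPM (0.19), as did Sfxn3 (0.45) and the serine palmitoyltransferase subunits Sptlc1 (0.18) and Sptlc2 (0.44), which use serine for sphingolipids.

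The other known ATF4 targets leaned lower in both experiments apart from a few large increases in mouse. In mouse 14 of 30 tested were called lower and 7 higher, with a median of -0.15, beside 15.8% and 20.7% over all genes. The tRNA synthetases Aars1 (347 to 269 CPM, -0.37), Mars1 (-0.41) and Cars1 (-0.43) and the proline synthesis enzyme Aldh18a1 (-0.45) fell. Ddit4, an inhibitor of mTORC1, rose from 0.88 to 28.3 CPM (4.99), and Sesn2, a leucine sensor of the same pathway, from 25.02 to 93.5 CPM (1.90). Both are also known targets of p53. Niban1 (0.51) and Klhl24 (0.35) rose by less. In human 23 of 32 were called lower and 5 higher, with a median of -0.30, beside 27.4% and 25.3% over all genes. XPOT, which exports tRNA from the nucleus, went from 215 to 142 CPM (-0.60), and the synthetases YARS1 (-0.47), NARS1 (-0.50) and LARS1 (-0.35) fell. KLHL24 (0.51), SESN2 (0.38), SQSTM1 (0.28) and HERPUD1 (0.25) rose. DDIT4 fell there by 0.44 on the log2 scale, and its interaction was 5.43 (adjusted p = 1.0e-10), a gene singled out after its values were seen.

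The list of ATF4 and the genes that act on it or with it was called lower in part in mouse and in both directions in human. In mouse 5 of 20, Atf4 itself among them, were called lower and 0 higher (median -0.078) by edgeR, beside 15.8% lower and 20.7% higher over all genes, with 0 higher also at an unadjusted p under 0.05 and by DESeq2. The others called lower include Eif2ak1, the heme-regulated eIF2 kinase (-0.24), Ppp1r15b, a subunit of the eIF2 phosphatase (-0.25), and Eif2b1 (-0.15). In human 7 of 21, again with ATF4 itself, were called higher and 10 lower (median -0.11), beside 25.3% and 27.4% over all genes. The kinases EIF2AK1 (0.25) and EIF2AK2 (0.45) and the mitochondrial stress relay DELE1 (0.32) rose. CEBPB, a binding partner of ATF4, fell from 66.1 to 33.3 CPM (-0.99), and the kinase EIF2AK4, which senses uncharged tRNA (-0.35), PPP1R15B (-0.54) and EIF2S1 (-0.39) fell too.

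Of the amino acid transporters other than the members, SLC3A2 included, 9 of 22 were called lower and 4 higher in mouse (median -0.20), and 12 of 21 lower and 6 higher in human (median -0.25). Over all genes 15.8% were called lower and 20.7% higher in mouse, and 27.4% and 25.3% in human, so that the transporters called higher were near the share of all genes in both. In mouse the glutamine carrier Slc38a5 (71.4 to 44.2 CPM, -0.69), the aromatic amino acid carrier Slc16a10 (-0.55), Slc1a4 (-0.52) and Slc43a1 (-0.38) fell. In human the glutamine carriers SLC1A5 (182 to 106 CPM, -0.78) and SLC38A2 (-0.48) and the cationic carriers SLC7A1 (-0.51) and SLC7A2 (-1.29) fell. SLC43A2, a carrier of large neutral amino acids like SLC7A5, rose in both, by 0.84 in mouse (16.6 to 29.7 CPM) and by 1.05 in human (29.7 to 61.4 CPM). Slc36a4 (0.82) rose in mouse, and SLC6A9, a glycine carrier (0.64), in human.

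The glutathione list had 6 of 18 called higher and 4 lower in mouse (median 0.063), and 5 of 18 higher and 9 lower in human (median -0.17). It also holds TXN, TXNRD1, HMOX1, NQO1, SRXN1 and KEAP1, which are not glutathione enzymes. Over all genes 20.7% were called higher and 15.8% lower in mouse, and 25.3% and 27.4% in human; the mouse genes called lower and the human genes called higher were near these shares. Gclc, the catalytic subunit of the rate-limiting enzyme, fell in mouse (-0.30) and in human (-0.29), and Gclm, its partner, fell by 0.25 and 0.17. The glutathione synthetase GSS went the other way and was called higher in mouse (0.30) and in human (0.11). Srxn1 rose in mouse from 9.94 to 17.9 CPM (0.85). In human HMOX1, which degrades heme, rose from 34.9 to 62.7 CPM (0.85), while TXNRD1 (-0.53) and MGST1 (-0.74) fell. Of the unfolded protein response of the endoplasmic reticulum, 4 of 23 were called lower and 0 higher in mouse (median -0.069) by edgeR, 1 higher at an unadjusted p under 0.05, and 0 higher by DESeq2. The share called lower was near the 15.8% of all mouse genes, of which 20.7% were called higher. The chaperone Hspa5 went from 723 to 574 CPM in mouse (-0.33). In human 17 of 23 were called lower and 5 higher (median -0.32), beside 27.4% and 25.3% over all genes, so that the share called higher was near that of all genes. The chaperones HYOU1 (210 to 109 CPM, -0.95) and CALR (825 to 603 CPM, -0.45) and the isomerase PDIA6 (-0.76) fell there, and the sensor ERN1 (0.51) and the ubiquitin ligase SYVN1 (0.53) rose.

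**Figure D5:**
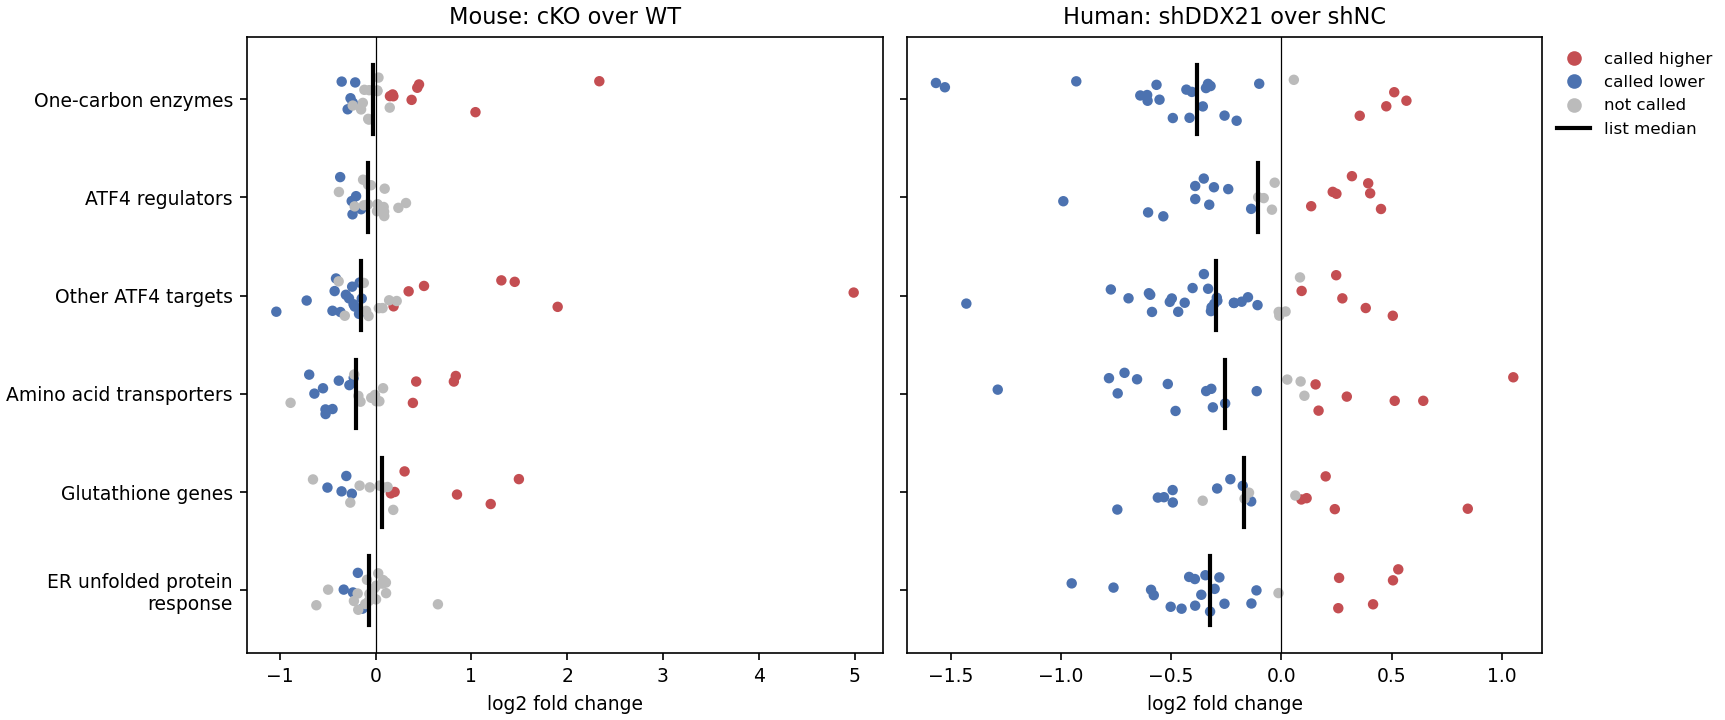
Log2 fold change of every tested gene of the 6 lists (points; red called higher, blue called lower, grey not called; black lines are list medians) in mouse on the left and human on the right; the horizontal ranges differ. The isolated point at 4.99 in mouse is Ddit4.

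The genes with profiles most like a member were found by the distance over 12 libraries between log2 CPM values relative to the controls, among 8097 genes. For PHGDH these were BEND3 (distance 0.26, mouse log2 fold change -0.32, human -1.11), SWAP70 (0.27, -0.17 and -1.01) and PARP1 (0.27, -0.27 and -1.02), where the median gene lay at 1.95. For ASNS they were E2F8 (0.34), ANXA3 (0.36) and CEP152 (0.44), where the median gene lay at 1.40, with the caveat on human ASNS reads given above. Likeness over these libraries says nothing of shared control.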

How the data were processed

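RNA of 12 libraries was sequenced after mRNA enrichment. Per the submitters' processing notes, STAR, featureCounts, DESeq2, mm10 and hg38 were used, with no version or role given. The deposited raw tables hold counts of reads per gene, made by the authors with no normalization. The authors also deposited normalized values (signal), which match raw counts over a size factor for each library (relative deviation at most 4.98e-10), and log2 values of these over the control mean. The deposited normalized tables were used for symbols only, and mouse symbols were completed from GENCODE M21, which matched Chac1 and Trib3 (99.5% of mouse identifiers were in it). Whether counting used strand, and how it treated reads that overlap several genes, is not given in the sources used here.

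edgeR 4.0.16 under R 4.3.3 was run on the counts (filterByExpr, TMM scaling, quasi-likelihood, two-sided) for each experiment, with Benjamini-Hochberg adjustment over all genes. The interaction used all 12 libraries with TMM within each experiment. SE was obtained from the size of the log2 fold change and its F statistic, and 95% intervals are normal ones. CPM is the count scaled to the TMM-adjusted library total, and log2 profiles used a prior count of 2. The fits were tested on simulated data. With 3 libraries against 3, an exact permutation test cannot go below p = 0.1. The GC correction adds as an offset each library's trend on GC content, taken from the longest GENCODE M21 transcript of each gene.

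The members and lists were chosen with earlier results of these data known. Members were all named. From each list, up to 4 genes in each direction with the smallest p among those called with a mean of at least 5 CPM were eligible. A gene eligible in either experiment could be given for both, and ATF4 and SLC3A2 were always named. Alternatives covered scaling (RLE, upper quartile, total counts), the low-count filter, DESeq2 1.42.0, a 1.5-fold requirement, a replicate block and leaving out each library. Some genes of the lists are counted but not reported by name here.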

Additional observations from a re-analysis of the deposited data

Results flagged for a closer look

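The log2 fold change differed between the mouse and the human experiment, by an interaction test over 10319 matched genes in edgeR, for 5 of the 9 members matched. The mouse minus human difference was 0.86 for PHGDH (adjusted p = 0.00044), with all 3 shDDX21 libraries below all 3 shNC libraries and overlapping groups in mouse. It was 0.84 for PSAT1 (adjusted p = 1.7e-06), with the groups apart in both experiments. For PSPH it was -0.44 (adjusted p = 0.023), for DDIT3 -0.38 (adjusted p = 0.041) and for SLC7A5 0.19 (adjusted p = 0.044). The calls for PSPH, DDIT3 and SLC7A5 were lost in 5, 9 and 11 of 20 alternatives, and those for PHGDH and PSAT1 in none. Over all matched genes 56.2% were called in this test, and the share of members called was near that. No group was large enough for a test of single outlying libraries.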

How the results depend on the processing

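Counts of called genes are given against 5 mouse and 7 human members and the list counts of the report. Requiring a 1.5-fold change left 2 members in each experiment. It left 2 one-carbon genes, 0 ATF4 regulators, 6 other ATF4 targets, 4 transporters, 3 glutathione genes and 0 unfolded protein response genes in mouse, and 6, 2, 6, 7, 2 and 3 in human. Over all genes it left 1797 higher and 693 lower in mouse (3083 and 2360 without it), and 1884 and 2105 in human (5105 and 5526). In mouse, unfolded protein response genes numbered 2 with upper-quartile factors, total counts and DESeq2, ATF4 regulators 3 with total counts, and one-carbon genes 7 with DESeq2. Total counts called 3565 mouse genes higher and 1612 lower. The correction to a common GC trend called 8 ATF4 regulators and 7 unfolded protein response genes, and that within groups 9 of the latter. Over all 14918 mouse genes the common correction called 3966 higher and 2640 lower, and that within groups 3609 and 3530. The unfolded protein response genes called were below these shares. Leaving out single libraries gave 4 to 6 mouse and 6 to 7 human members, 2 to 5 members in the interaction, and in mouse 7 to 12 one-carbon genes, 3 to 7 ATF4 regulators, 6 to 9 glutathione genes and 1 to 4 unfolded protein response genes. The lowest of these one-carbon, glutathione and regulator counts arose without WT replicate 1 or cKO replicate 3, regulators also numbered 3 without WT replicate 2 or cKO replicate 2, and the count of 1 arose without cKO replicate 3.

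The sign of uncalled values changed in 12 cases. TRIB3 in mouse was -0.25 without WT replicate 3 and -0.49 without cKO replicate 3, and its interaction -0.16 and -0.40. Over single libraries left out these ran up to 0.43 and 0.52. CHAC1 in human was 0.054 with upper-quartile factors and 0.11, 0.039 and 0.012 without shNC replicate 2, shDDX21 replicate 1 and shDDX21 replicate 2, and as low as -0.15 without shNC replicate 3. The ASNS interaction was 0.075 with total counts and 0.089 and 0.19 without shNC replicate 1 and shDDX21 replicate 1. PHGDH in mouse was 0.025 with the correction to a common GC trend. The cause was not tested. Replicate numbers are shared between groups, but only the pair numbered 1 in mouse deviated together (r across genes 0.32, against -0.18 and 0.013 for the other mouse pairs and -0.014 to -0.00086 in human), so the numbers were not taken as pairs. The replicate block left 5 mouse and 7 human members called and changed no member's call. Depth limits Chac1, Trib3 and Slc7a11 in mouse and ASNS and CHAC1 in human, all under 100 reads in each library.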
